A study of Mus musculus with 8 samples.

Results

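The 41 genes described here encode the chaperones of the cytosol and the mitochondria: the 8 subunits of the CCT ring, 7 members of the HSP70 and HSP110 families, both cytosolic HSP90 proteins, 8 J-proteins, 6 co-chaperones, 3 small heat shock proteins, the heat shock transcription factor Hsf1 and 6 mitochondrial chaperones or proteases. They were chosen by name, each matched 1 row among the 46983 genes of the deposited expression table, and all 41 were among the 9270 genes expressed highly enough to be tested. RNA was from the hippocampus of C57BL/6 mice at 2 months of age. XBP1s-TG mice (TRE-XBP1s;Camk2a-tTA, libraries S1 to S4) carry a Tet-off Xbp1s transgene driven in forebrain excitatory neurons and silenced by doxycycline (Dox) in the drinking water, and Control mice (libraries S5 to S8) are labeled only as Control. Tissue was taken 7 days after Dox removal, with 1 library from each of 4 mice per group. Seizure-like behavior begins at about this time in XBP1s-TG mice, so that its part and that of the transgene in any difference cannot be told apart.

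XBP1s is the transcription factor made when the endoplasmic reticulum (ER) sensor IRE1 triggers the splicing of Xbp1 mRNA, and its known targets are genes of ER folding and ER-associated degradation. Proteins made on free ribosomes are folded instead by chaperones of the cytosol. HSP70 proteins bind short unfolded stretches in a cycle driven by ATP, J-proteins deliver substrates and trigger ATP hydrolysis, and HSP110 proteins exchange the nucleotide. HSP90 completes the folding of kinases and receptors with the help of co-chaperones, and the barrel-shaped CCT complex folds actin and tubulin. When unfolded proteins build up in the cytosol, HSF1 binds heat shock elements in front of many of these genes and raises their transcription. Mitochondria hold their own HSP70, HSP90, chaperonin and proteases, all encoded in the nucleus.

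Expression was given as TPM, the share of a gene's transcripts in 1000000 transcripts of the library, a level already divided by transcript length, so that levels of different genes can be compared. Log2 fold changes are XBP1s-TG minus Control on the scale log2(TPM + 2) after quantile normalization of the 8 libraries, with limma's standard error (SE) and a p-value adjusted over all 9270 genes by Benjamini-Hochberg. A gene is said to rise or fall here only where adjusted p was under 0.05. A stricter call also required a change of at least 1.5-fold. Xbp1 itself checked the labels. It was at 786, 549, 1094 and 729 TPM in S1 to S4 and between 68.9 and 71.9 TPM in the 4 Control libraries. S1 and S3, the 2nd highest and the highest for Xbp1, stood apart in that they held little choroid plexus RNA. Their 12 marker genes of that tissue summed to 217 and 343 TPM, against 6005 and 10683 TPM in S2 and S4 and 4791 to 10433 TPM in Control. The part of this difference in the results was not tested, and where a call was lost when S1 and S3 were left out, the value without them is given.

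Of the 41 chaperone genes, 8 rose (19.5%) and 17 fell (41.5%), while 16 did not pass the test. Over all 9270 genes tested, 24.4% rose and 29.4% fell. At 1.5-fold the call was met by 2 chaperone genes that were higher, Hspa1b and Dnajb4, and by 0 that were lower, where 5.61% and 2.75% of all genes were called. At an unadjusted p under 0.05 and with no fold limit, 19 were lower and 9 higher, where 3088 and 2456 of the 9270 genes tested were. The median log2 fold change of the 41 genes was -0.12, against -0.04 over all genes tested. Quantile normalization set this zero: without it the median of all genes was 0.07, a shift of 0.10, and that of the chaperones was -0.02. On that unnormalized TPM scale 10 chaperone genes rose and 9 fell, where 34.1% and 14.4% of all genes did. After quantile normalization and without S1 and S3, 3 rose and 11 fell. The TPM of the groups did not overlap for 10 chaperone genes higher in XBP1s-TG and for 9 lower. Over all genes tested this held for 34.1% and 13.2%, so lack of overlap is common in these data. Bulk RNA cannot tell fewer cells of a type apart from less RNA per cell, and this holds for every value that follows.

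**Figure D1:**
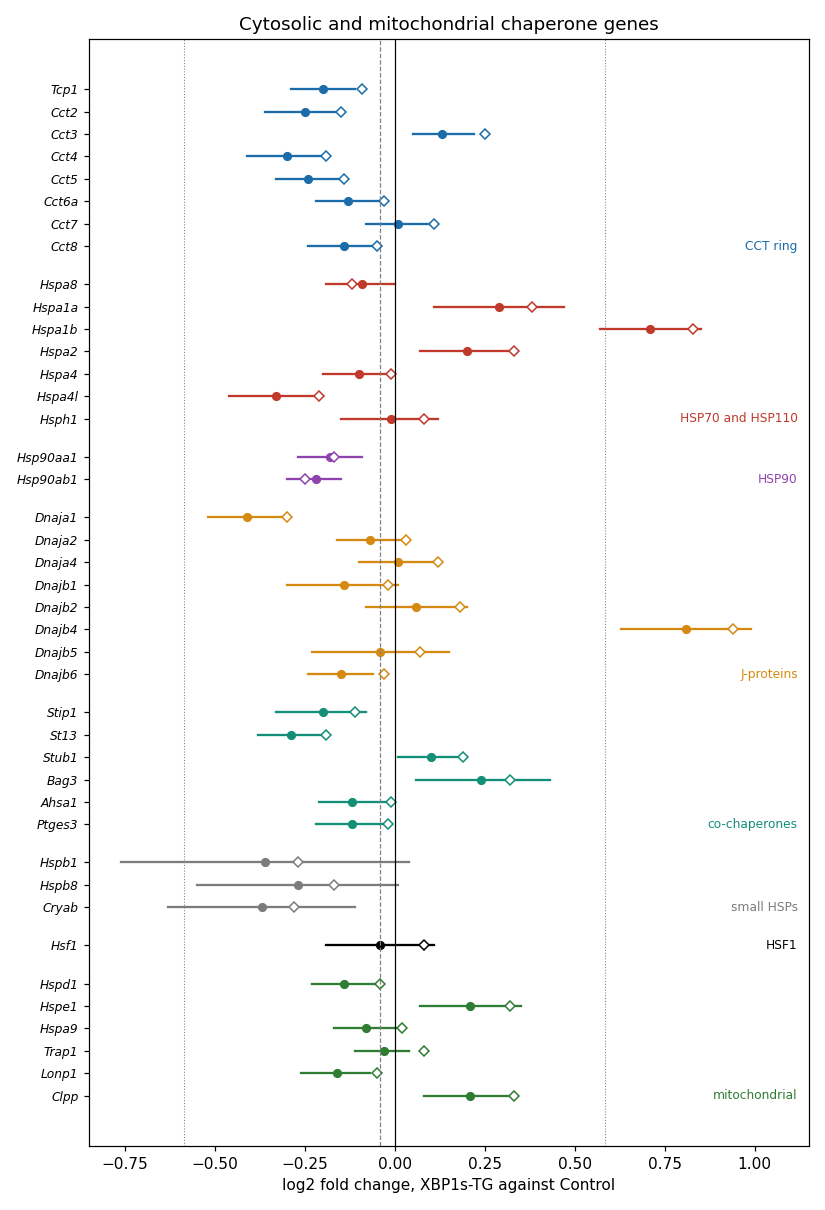
Log2 fold change (XBP1s-TG against Control) of the 41 chaperone genes, grouped by family, with filled circles and 95% confidence intervals from the quantile-normalized fit and open diamonds for the difference without normalization beyond TPM. The dashed line is the median of all genes tested (-0.04) and the dotted lines mark a 1.5-fold change; Hspa1b (0.71) and Dnajb4 (0.81) are the 2 points past it.

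Both heat-inducible HSP70 genes rose, where 24.4% of all genes tested did. Hspa1b, a stress-inducible HSP70 gene at chr17:34956436-34959238 on the minus strand (GRCm38), was at 59.5, 51.8, 51.7 and 53.5 TPM in XBP1s-TG and at 28.5, 28.1, 32.3 and 29.5 TPM in Control. No library of one group reached the other, and the means were 54.1 ± 3.66 TPM (SD, n = 4) and 29.6 ± 1.92 TPM (SD, n = 4), with a log2 fold change of 0.71 (SE 0.0626, adjusted p = 2.48e-05). Its neighbor and near copy Hspa1a (chr17:34969190-34972156, minus strand) was at 25.8, 23.2, 28.5 and 29.8 TPM against 19.1, 21.8, 19.2 and 20.1 TPM. The groups again did not overlap, and the log2 fold change was 0.29 (SE 0.0787, adjusted p = 0.0123), a call that was lost without S1 and S3 (0.28, adjusted p = 0.0698). The pair are hard to separate by short reads: 62.3% of the 50-base words of Hspa1b transcripts also occur in Hspa1a, so how reads were divided between them is uncertain. Their sum depends less on that division, and it was 75.0 to 85.2 TPM in XBP1s-TG and 47.6 to 51.5 TPM in Control. Of the 50-base words of Hspa1a 66.3% occur in other genes, 58.8% in Hspa1b, so some of its reads can be split outside the pair. Hspa1a also overlaps Gm20481 on the opposite strand (means of 2.42 TPM in XBP1s-TG and 1.31 TPM in Control). The ratio of Hspa1b to Hspa1a was 1.79 to 2.31 in XBP1s-TG and 1.29 to 1.68 in Control.

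Both genes carry the same heat shock element in front of their starts, shown here because they are the heat-inducible HSP70 genes and because their promoters nearly match. In the 250 bases before the start, Hspa1a and Hspa1b share 247 bases (98.8%). Sequences are from RefSeq on GRCm38.p6, written 5′ to 3′ along the gene's strand, from chr17:34972237-34972276 and chr17:34959319-34959358 (both minus strand), with 2 inverted heat shock units in capitals.
Hspa1a: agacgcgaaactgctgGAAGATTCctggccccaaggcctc
Hspa1b: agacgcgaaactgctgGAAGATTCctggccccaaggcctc
The stretches cover positions -120 to -81 from the start and are identical.

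Hspa8 encodes HSC70, the constitutive HSP70 of the cytosol and the chaperone that strips clathrin from synaptic vesicles. Its level was 1242, 1277, 1381 and 1330 TPM in XBP1s-TG and 1393, 1407, 1452 and 1418 TPM in Control, lower in every XBP1s-TG library. The log2 fold change after quantile normalization was -0.09 (SE 0.0418, adjusted p = 0.0860), which did not pass the test, whereas it passed without normalization beyond TPM and with median centring. Within each library, where scaling cannot act, Hspa1b stood at 0.0374 to 0.0479 of the Hspa8 level in XBP1s-TG and at 0.0199 to 0.0223 in Control. Hspa8 was the most abundant HSP70 transcript in every library. Of its 50-base words 39.4% occur in other genes, chiefly Gm15459. Hspa2, a further HSP70 best known from testis and also made in brain, was at 114, 96.6, 100 and 104 TPM against 81.0, 81.3, 79.4 and 87.1 TPM. Its groups did not overlap, its log2 fold change was 0.20 (SE 0.0599, adjusted p = 0.0170), and the call was lost without S1 and S3 (0.18, adjusted p = 0.0675). No 50-base word of Hspa2 occurs in another gene's transcripts.

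Of the 3 HSP110 genes, whose proteins recharge HSP70 with ATP, 1 fell and 2 did not pass, where 29.4% of all genes tested fell. Hspa4l was at 43.8, 44.4, 42.2 and 46.1 TPM in XBP1s-TG and at 55.3, 51.6, 54.9 and 44.2 TPM in Control. S8 was the Control library inside the XBP1s-TG range, and the log2 fold change was -0.33 (SE 0.0571, adjusted p = 0.00105). Hspa4 overlapped between groups, at 153 to 173 TPM against 160 to 165 TPM (adjusted p = 0.0605). Hsph1, a classic heat shock target, was at 137, 136, 170 and 147 TPM against 134, 140, 143 and 140 TPM, with S3 alone standing high, and its log2 fold change was -0.01 (95% interval -0.15 to 0.12, adjusted p = 0.861).

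Among J-proteins 1 rose, 2 fell and 5 did not pass (12.5% rose and 25.0% fell, against 24.4% and 29.4% of all genes tested). Dnajb4 (chr3:152178511-152210302, minus strand) encodes a cytosolic J-protein that works with HSP70, and it had the largest log2 fold change of the 41 genes. It was at 81.9, 65.8, 90.7 and 83.6 TPM in XBP1s-TG and at 43.9, 39.3, 40.5 and 39.8 TPM in Control. All 4 XBP1s-TG libraries lay above all 4 Control libraries, with means of 80.5 ± 10.5 TPM (SD, n = 4) and 40.9 ± 2.09 TPM (SD, n = 4), and the log2 fold change was 0.81 (SE 0.0801, adjusted p = 4.63e-05). None of its 50-base words occurs in another gene, and its ratio to Dnajb1 in the same library was 0.932 to 1.21 in XBP1s-TG and 0.498 to 0.634 in Control. Dnajb4 has 2 RefSeq starts, and a pair of inverted heat shock units, in capitals, ends close before one of them. It is printed as the element of the gene with the largest change (chr3:152193846-152193895, minus strand, positions -50 to -1).
Dnajb4: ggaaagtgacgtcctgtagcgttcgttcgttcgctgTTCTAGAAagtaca
Dnajb1, the main HSP40 of the heat shock response, did not pass the test. It was at 67.5, 70.6, 78.2 and 75.6 TPM against 75.1, 77.9, 81.2 and 62.8 TPM, with overlapping groups, and its log2 fold change was -0.14 (95% interval -0.30 to 0.01, adjusted p = 0.106). Without S8, the lowest Control library, Dnajb1 passed the test as lower.

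Dnaja1, a farnesylated J-protein that pairs with HSC70, had the largest fall, at 55.0, 53.6, 53.6 and 57.6 TPM in XBP1s-TG and 72.9, 67.3, 65.5 and 66.0 TPM in Control. The groups did not overlap, with means of 55.0 ± 1.88 TPM (SD, n = 4) and 67.9 ± 3.40 TPM (SD, n = 4), and the log2 fold change was -0.41 (SE 0.0499, adjusted p = 0.000148). Of the 50-base words of Dnaja1 20.6% occur in other genes. Smu1, which overlaps it on the opposite strand, had means of 65.3 TPM in XBP1s-TG and 55.1 TPM in Control. Dnajb4 was at 0.583 to 0.617 of the Dnaja1 level in Control libraries and at 1.23 to 1.69 in XBP1s-TG libraries, so the order of the pair was the opposite in the groups. As these are the genes with the largest rise and the largest fall, that separation follows from the choice of the pair. Dnajb6, a suppressor of polyglutamine aggregation, fell by 0.15 on the log2 scale (adjusted p = 0.0114), although its TPM overlapped (75.1 to 80.5 against 78.1 to 84.0) and the call was lost on the unnormalized TPM scale and without S1 and S3 (-0.15, adjusted p = 0.0663). Dnaja2, Dnaja4, Dnajb2 and Dnajb5 had log2 fold changes between -0.07 and 0.06 and did not pass, Dnaja4 being higher without overlap before normalization (63.4 to 70.0 against 57.9 to 62.4 TPM). Dnaja4 shares 42.7% of its 50-base words with Wdr61, which overlaps it on the opposite strand.

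Both cytosolic HSP90 genes fell, where 29.4% of all genes tested did. Hsp90ab1, the constitutive HSP90 and the most abundant transcript of the 41 together with Hspa8, was at 1390, 1422, 1396 and 1422 TPM in XBP1s-TG and at 1672, 1726, 1661 and 1632 TPM in Control. The groups were far apart for their spread, at 1408 ± 17.0 TPM (SD, n = 4) and 1673 ± 39.3 TPM (SD, n = 4), and the log2 fold change was -0.22 (SE 0.0346, adjusted p = 0.000573). Hsp90aa1, the stress-inducible HSP90, was at 656, 659, 697 and 707 TPM against 766, 789, 757 and 748 TPM. Its groups did not overlap and its log2 fold change was -0.18 (SE 0.0384, adjusted p = 0.00355), a call lost by voom on read counts recovered from the TPM values. Of its 50-base words 47.5% occur in other genes, chiefly the processed copy Gm12346, against 3.44% for Hsp90ab1. The pair summed to 2046 to 2129 TPM in XBP1s-TG and to 2380 to 2515 TPM in Control. The ratio of Hsp90aa1 to Hsp90ab1 was 0.463 to 0.499 in XBP1s-TG and 0.456 to 0.458 in Control, so that the inducible gene was the less reduced of the pair in each library.

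**Figure D2:**
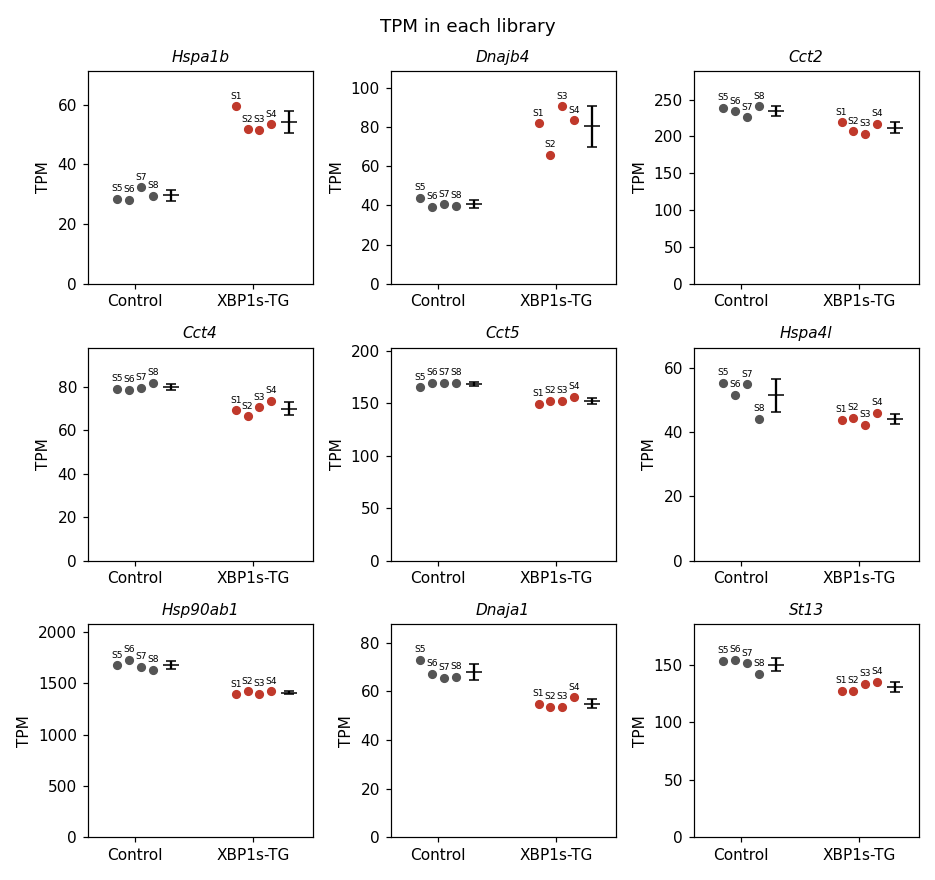
TPM of 9 chaperone genes in each library (points, labeled S1 to S8), with the mean and SD of the 4 libraries of each group and axes from 0. These are the 2 higher and 7 lower genes that kept their call in all 20 settings; Hspa4l is the gene among them whose groups overlap, through S8.

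Of the 8 subunits of the CCT ring, 1 rose, 6 fell and 1 did not pass although each subunit occurs once in each of the stacked rings. In shares, 12.5% rose and 75.0% fell, against 24.4% and 29.4% of all genes tested. Cct4 (chr11:22990519-23003780, plus strand) was at 69.2, 66.4, 70.5 and 73.6 TPM in XBP1s-TG and at 79.2, 78.6, 79.6 and 81.7 TPM in Control. It was lower in every XBP1s-TG library, with a log2 fold change of -0.30 (SE 0.0449, adjusted p = 0.000448). Cct3 (chr3:88297116-88321767, plus strand) was at 81.7, 74.6, 83.6 and 80.6 TPM against 67.0, 67.3, 67.7 and 65.5 TPM. It was higher in every XBP1s-TG library, with means of 80.1 ± 3.85 TPM (SD, n = 4) and 66.9 ± 0.944 TPM (SD, n = 4), although its log2 fold change was only 0.13 (SE 0.0363, adjusted p = 0.0119) and was not called without S1 and S3 (0.11, adjusted p = 0.101). The order of these subunits was the opposite in the groups: Cct3 stood at 1.10 to 1.18 of the Cct4 level in XBP1s-TG libraries and at 0.802 to 0.857 in Control libraries. Since Cct3 was higher and Cct4 lower in every XBP1s-TG library, the separation of their ratio follows from their levels and is no further evidence. These ratios within a library do not change with scaling, and Cct3 and Cct4 share under 1% of their 50-base words with other genes.

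The most abundant subunit gene, Cct2, was at 219, 207, 204 and 217 TPM in XBP1s-TG and 239, 234, 226 and 241 TPM in Control, without overlap (log2 fold change -0.25, SE 0.0488, adjusted p = 0.00209). Cct5 was at 149, 152, 152 and 156 TPM against 165, 169, 169 and 169 TPM, also without overlap (log2 fold change -0.24, SE 0.0401, adjusted p = 0.000827). Tcp1, which encodes the alpha subunit, was at 101 to 109 TPM against 110 to 112 TPM, a log2 fold change of -0.20 (adjusted p = 0.00302) that was not called before quantile normalization. Cct6a and Cct8 overlapped between groups and had log2 fold changes of -0.13 (adjusted p = 0.0262) and -0.14 (adjusted p = 0.0193), both lost on the unnormalized TPM scale and without S1 and S3 (-0.11, adjusted p = 0.145, and -0.14, adjusted p = 0.0947). The call of Cct6a was also lost by voom and without S1, S2, S3, S5, S6 or S8. Cct7 did not pass (log2 fold change 0.01, 95% interval -0.08 to 0.10), and within libraries it stood at 0.825 to 0.928 of the Cct2 level in XBP1s-TG and at 0.683 to 0.766 in Control. The median of the 8 subunits was -0.17 after quantile normalization and -0.07 before it, where 1 subunit rose, 3 fell and 4 did not pass. On that unnormalized TPM scale 34.1% of all genes rose and 14.4% fell. The most abundant subunit exceeded the least abundant by 2.90 to 3.16 times in XBP1s-TG and by 3.34 to 3.68 times in Control. Several of these genes overlap others on the opposite strand (Tcp1 with Mrpl18, Cct6a with Psph, Cct7 with Pradc1, Cct8 with Usp16), and the use of strand in counting is not given in the sources used here.

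**Figure D3:**
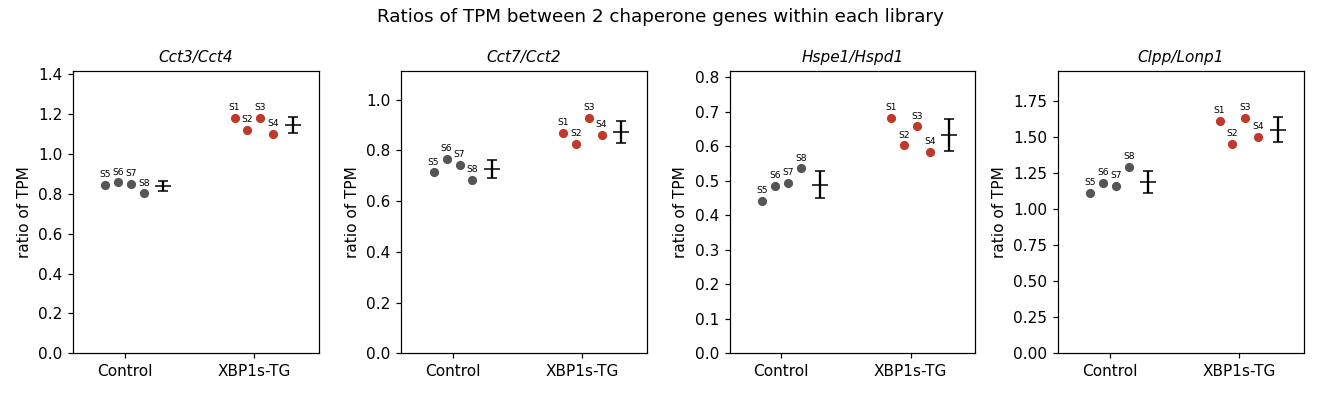
Ratio of the TPM of 2 chaperone genes in the same library (points, S1 to S8), with the mean and SD of the 4 libraries of each group; such ratios do not depend on how libraries are scaled to each other. The groups do not overlap in any panel: Cct3/Cct4 is 1.10 to 1.18 in XBP1s-TG and 0.802 to 0.857 in Control, and Hspe1/Hspd1 is 0.583 to 0.682 and 0.441 to 0.536. The pairs were not fixed in advance. Each sets a gene with the higher log2 fold change over one with the lower, so a separation follows in part from the choice.

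Of the 6 co-chaperones 1 rose, 3 fell and 2 did not pass, where 24.4% of all genes tested rose and 29.4% fell. On the unnormalized TPM scale 2 rose, 1 fell and 3 did not pass, where 34.1% of all genes rose and 14.4% fell. St13, also called HIP, which holds HSP70 on its substrate, was at 127, 127, 133 and 135 TPM in XBP1s-TG and at 153, 154, 151 and 142 TPM in Control. It was lower in every XBP1s-TG library (log2 fold change -0.29, SE 0.0396, adjusted p = 0.000291). Stip1, or HOP, which hands substrates from HSP70 to HSP90, fell by 0.20 on the log2 scale (adjusted p = 0.0116), with overlapping TPM of 194 to 232 against 216 to 238. Ahsa1, the activator of the HSP90 ATPase, fell by 0.12 on the log2 scale (adjusted p = 0.0392), and its TPM overlapped at 224 to 258 against 232 to 250. The HSP90 clamp protein p23, encoded by Ptges3, had nearly the same log2 fold change, -0.12, but did not pass (adjusted p = 0.0551). The calls of Stip1 and Ahsa1 were not made on the unnormalized TPM scale, and that of Ahsa1 was also lost with no filter, without S1, S2, S6, S7 or S8, and without S1 and S3 together (-0.12, adjusted p = 0.121).

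The sorting factor and the ubiquitin ligase that carry chaperone clients to degradation had log2 fold changes above 0. Bag3, which directs clients to autophagy, was at 14.8, 16.4, 19.7 and 18.5 TPM in XBP1s-TG and at 13.7, 14.6, 13.7 and 11.7 TPM in Control. The groups did not overlap, and the log2 fold change was 0.24 (SE 0.0832, adjusted p = 0.0335), but the call was lost without S3, S4, S5, S7 or S8 and under 3 other settings. Stub1, the ligase CHIP, was at 212, 198, 220 and 199 TPM against 172, 185, 187 and 181 TPM. It was higher in every XBP1s-TG library, yet its log2 fold change after normalization was 0.10 (adjusted p = 0.0570) and passed only on the unnormalized TPM scale and with values below 4 raised to 4. Stub1 shares 33.7% of its 50-base words with other genes, nearly all with Jmjd8 on the opposite strand.

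The small heat shock proteins, which hold unfolded proteins without ATP, were the least precise of the 41 genes. Cryab, alpha B-crystallin, was at 147, 195, 181 and 196 TPM in XBP1s-TG and at 201, 246, 242 and 184 TPM in Control. S8 was the lowest Control library, as it was for the summed markers of oligodendrocytes (2373 TPM, against 2996 to 3316 TPM in the other Control libraries and 2875 to 3282 TPM in XBP1s-TG), a cell type that makes much Cryab. The log2 fold change of Cryab was -0.37 (SE 0.117, adjusted p = 0.0231), the call was lost without S1, S3, S6 or S7, without S1 and S3 together (-0.21, adjusted p = 0.168), on the unnormalized TPM scale, with no filter and with an unequal-variance test, and the part of the cell type in it was not tested. Hspb1 was at 11.1, 13.1, 19.2 and 16.3 TPM against 17.7, 18.8, 25.2 and 12.6 TPM, the shallowest gene of the 41 with 131 to 302 recovered reads a library, and its log2 fold change of -0.36 (SE 0.177, adjusted p = 0.112) passed only without S8. Of the 50-base words of Hspb1 50.1% occur in other genes, chiefly Hsp25-ps1. Hspb8, the partner of BAG3, was at 18.0 to 29.9 TPM against 23.9 to 28.7 TPM (adjusted p = 0.0887). Hspb1 is printed as a gene that carries 2 such elements and was not higher in XBP1s-TG (chr5:135887789-135887838, plus strand, positions -130 to -81).
Hspb1: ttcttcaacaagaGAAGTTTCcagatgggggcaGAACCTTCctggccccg
Hsf1, the factor that binds these elements, was at 38.4, 39.5, 42.3 and 35.2 TPM against 33.2, 36.8, 40.7 and 36.0 TPM, with overlapping groups (log2 fold change -0.04, 95% interval -0.19 to 0.11, adjusted p = 0.600). Its RNA level says nothing of its activity, which depends on the protein's state.

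A list of 10 members was taken as classic heat shock genes, and it does not hold Dnajb4 or Dnaja1. Of these 10, 4 rose (Hspa1a, Hspa1b, Bag3 and Hspe1), 3 fell (Hsp90aa1, Cryab and Hspd1) and 3 did not pass (Hsph1, Dnajb1 and Hspb1). The calls of Hspa1a, Hspe1, Cryab and Hspd1 were lost without S1 and S3, and that of Bag3 was kept in 10 of 18 alternatives. The median log2 fold change of the 10 was -0.08, and 0.03 without quantile normalization. Without that normalization 4 rose and 1 fell, Cryab and Hspd1 losing their calls. Over all genes tested, 24.4% rose and 29.4% fell after normalization and 34.1% and 14.4% did before it.

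Of the 6 mitochondrial genes 2 rose, 2 fell and 2 did not pass (33.3% rose and 33.3% fell, against 24.4% and 29.4% of all genes tested). Their median was -0.06 after quantile normalization and 0.05 before it. The chaperonin pair HSP60 and HSP10, encoded by Hspd1 and Hspe1, form one folding chamber and its lid. Hspe1 (chr1:55088132-55091307, plus strand) was at 133, 114, 133 and 121 TPM in XBP1s-TG and at 93.1, 100, 98.3 and 108 TPM in Control. It was higher in every XBP1s-TG library, with means of 125 ± 9.14 TPM (SD, n = 4) and 99.9 ± 6.11 TPM (SD, n = 4), with a log2 fold change of 0.21 (SE 0.0630, adjusted p = 0.0188) that was not called without S1, S5 or S7, without S1 and S3 together (0.15, adjusted p = 0.164), with no filter or with an unequal-variance test. Hspd1 (chr1:55077835-55088243, minus strand) was at 195, 190, 202 and 208 TPM against 211, 207, 199 and 201 TPM. Its groups overlapped, and its log2 fold change of -0.14 (SE 0.0413, adjusted p = 0.0167) was not called on the unnormalized TPM scale, without S1 or without S1 and S3 (-0.12, adjusted p = 0.128). Hspe1 stood at 0.583 to 0.682 of the Hspd1 level in XBP1s-TG and at 0.441 to 0.536 in Control. Of the 50-base words of Hspd1 38.0% occur in Hspd1-ps3, and of those of Hspe1 22.8% occur in some other gene, so reads of both can be split with other rows.

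The pair are read away from each other on opposite strands, and 1 run of alternating heat shock units lies between the Hspe1 start at 55088148 and the Hspd1 start at 55087932, while a further Hspd1 start at 55088243 lies beyond it. It is shown because the genes that share it differed in direction (chr1:55088038-55088097, plus strand, positions -110 to -51 of Hspe1, with the run of units in capitals).
Hspe1: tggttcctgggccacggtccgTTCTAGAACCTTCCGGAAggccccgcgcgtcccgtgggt
The same bases, read on the other strand, lie in front of the Hspd1 start at 55087932.

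Of the 2 matrix proteases, Clpp rose and Lonp1 fell. Clpp, the proteolytic subunit of ClpXP, was at 111, 94.7, 118 and 101 TPM in XBP1s-TG and at 81.6, 86.8, 83.0 and 83.5 TPM in Control. The groups did not overlap, with means of 106 ± 10.4 TPM (SD, n = 4) and 83.7 ± 2.21 TPM (SD, n = 4), and the log2 fold change was 0.21 (SE 0.0556, adjusted p = 0.0108), a call lost with an unequal-variance test and without S1 and S3 (0.13, adjusted p = 0.0923). Lonp1, the LON protease, was at 68.9, 65.3, 72.8 and 67.2 TPM against 73.8, 73.8, 71.7 and 64.6 TPM, overlapping, and fell by 0.16 on the log2 scale (adjusted p = 0.00911), a call that was not called on the unnormalized TPM scale. Clpp stood at 1.45 to 1.63 of the Lonp1 level in XBP1s-TG and at 1.11 to 1.29 in Control. Hspa9, the mitochondrial HSP70 mortalin, was at 164 to 182 TPM against 165 to 179 TPM (log2 fold change -0.08, 95% interval -0.17 to 0.01), and Trap1, the mitochondrial HSP90, at 70.8 to 74.4 TPM against 65.5 to 71.3 TPM (log2 fold change -0.03, 95% interval -0.11 to 0.04). Neither passed the test.

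The same protein families have members in the ER, and in the 6 pairs compared the ER gene rose by more than its cytosolic or mitochondrial relative. Each ER gene was set against its cytosolic or mitochondrial relative in the same library, as the difference of log2(TPM + 2), and the difference between groups was tested with an exact two-sided permutation test, adjusted over the 6 pairs. Hspa5 (BiP), the HSP70 of the ER lumen, moved by 1.82 (SE 0.0977) against Hspa8 and by 1.68 (SE 0.0888) against Hspa9. In the libraries, the log2 ratio of Hspa5 to Hspa9 was 1.75, 1.63, 2.02 and 1.75 in XBP1s-TG and 0.07, 0.20, 0.06 and 0.09 in Control, so the ER and mitochondrial HSP70 were at about the same level in Control. Hsp90b1 (GRP94), the HSP90 of the ER, moved by 1.42 (SE 0.0971) against Hsp90ab1 and by 1.09 (SE 0.0922) against Trap1. Hyou1, the HSP110 of the ER, moved by 2.20 (SE 0.105) against Hspa4, and the J-protein Dnajb11 by 1.04 (SE 0.0844) against Dnajb1. In all 6 pairs the groups did not overlap, XBP1s-TG being the higher, and p and adjusted p of the exact permutation test were 0.0286, the smallest that 4 against 4 libraries allow. The genes were chosen with earlier results of these data known, so these p-values restate the rise of the ER genes and add no support to it.

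**Figure D4:**
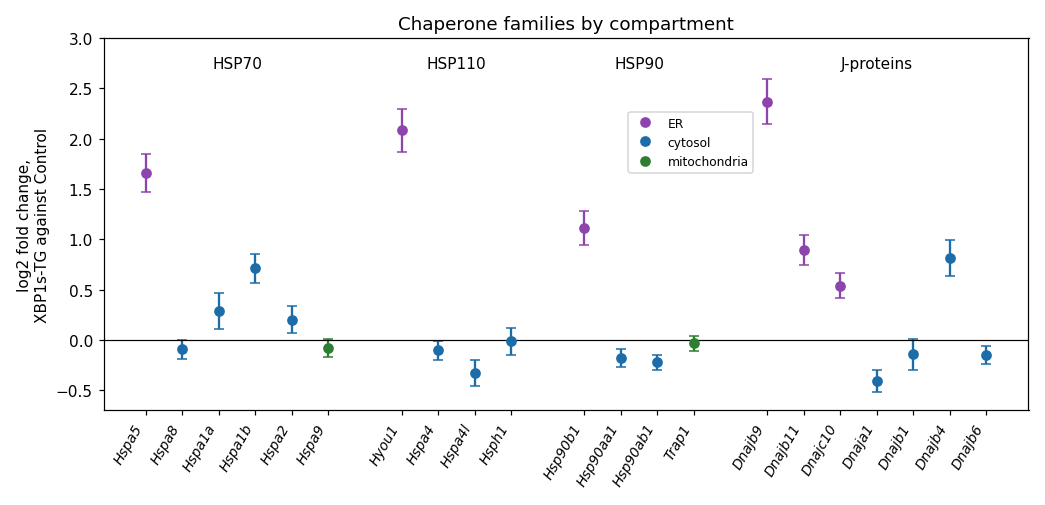
Log2 fold change (XBP1s-TG against Control, points with 95% confidence intervals) of members of 4 chaperone families, colored by the compartment in which the protein works. The ER members lie between 0.54 (Dnajc10) and 2.36 (Dnajb9), and the cytosolic Hspa1b (0.71) and Dnajb4 (0.81) lie above Dnajc10 and below the other ER members plotted.

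Of 17 ER chaperones tested, 16 rose (94.1%) and 0 fell, against 24.4% and 29.4% of all genes tested. At 1.5-fold 14 were called higher, where 5.61% of all genes were, and the median log2 fold change of the 17 was 1.41. The rise of the ER J-protein Dnajc10, 0.54 on the log2 scale, was smaller than the log2 fold changes of Dnajb4 and Hspa1b. At an unadjusted p under 0.05 none of the 17 was lower either, where 3088 of the 9270 genes tested were. The 14 were Hspa5, Hsp90b1, Hyou1, Dnajb9, Dnajb11, Dnajc3, Sdf2l1, Calr, Pdia3, Pdia4, Pdia6, P4hb, Manf and Creld2. The sum of Hspa5, Hsp90b1 and Hyou1 was 1184 to 1660 TPM in XBP1s-TG and 457 to 516 TPM in Control, whereas the 41 chaperones of the cytosol and mitochondria summed to 7477 to 7967 TPM and 7973 to 8267 TPM. Means of the 41 were 7722 and 8126 TPM, and those of the HSP90 pair within them 2087 and 2438 TPM. The ratio of mean sums was 0.856 for HSP90, 0.828 for small heat shock proteins, 0.967 for CCT, 0.970 for HSP70 and HSP110 and 0.991 for co-chaperones. It was 1.07 for J-proteins, 1.07 for the mitochondrial genes and 1.06 for Hsf1. The sums of the groups did not overlap for HSP90 (2046 to 2129 TPM in XBP1s-TG, 2380 to 2515 TPM in Control). They overlapped for every other family, as for the small heat shock proteins (176 to 242 TPM in XBP1s-TG, 220 to 294 TPM in Control).

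A further list for the cytosol, outside the 41, held 38 genes. They encode prefoldin subunits, phosducin-like proteins and HSP90 and HSP70 co-chaperones. The list also held further HSP70, J-protein, CCT and small heat shock protein genes and another heat shock transcription factor. Of the 38, 33 were tested, of which 5 rose, 13 fell and 15 did not pass (15.2% and 39.4%, where 24.4% and 29.4% of all genes did). Without normalization beyond TPM the balance was the opposite, 8 rising and 4 falling, where 34.1% and 14.4% of all genes did. At 1.5-fold the call was met by 1 of them, Pdcl, which encodes the phosducin-like protein, a partner of CCT in the assembly of G protein subunits. Pdcl was at 42.9, 39.2, 51.7 and 46.4 TPM in XBP1s-TG and at 22.5, 21.3, 20.4 and 19.8 TPM in Control. The groups lay far apart, and the log2 fold change was 0.92 (SE 0.0715, adjusted p = 1.24e-05). Of 22 further mitochondrial chaperones and proteases listed, 19 were tested, 4 rose and 4 fell (21.1% each), 7 rose and 1 fell without normalization beyond TPM, and 0 were called at 1.5-fold by limma, where 4 were higher and 4 lower at an unadjusted p under 0.05.

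The sequence in front of the genes was described for the motifs of the heat shock and unfolded protein responses. RefSeq promoters were matched for 33 of the 41 genes, and motifs were searched on both strands in the 250 bases before each start. A pair of inverted heat shock units (GAANNTTC or TTCNNGAA) was found for 13 of 33 genes (39.4%), against 14.5% of all 27025 genes with a promoter, and 3 units in a row (GAANNTTCNNGAA or TTCNNGAANNTTC, which contain the pair) for 3 genes (9.09%: Dnajb6, Hspd1 and Hspe1), against 0.514% of all genes. Of the 8 chaperones that rose, 4 held the pair (Hspa1a, Hspa1b, Dnajb4 and Hspe1), and of the 12 genes that fell and had a matched promoter, 5 held it (Cct2, Cct5, Dnaja1, Dnajb6 and Hspd1). Of the 13 with a promoter that did not pass, 4 held it (Hsph1, Dnaja4, Stub1 and Hspb1). The unfolded protein response element (TGACGTGG or CCACGTCA) was found for 0 of the 33, for 0 of the 14 ER chaperones with a promoter and for 0.603% of all genes. The ER stress element, searched as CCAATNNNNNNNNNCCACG or CGTGGNNNNNNNNNATTGG, was found for 0 of the 33 and for 7 of these 14 ER chaperones, against 0.130% of all genes. A match describes letters, not binding, and its absence says only that these letters are not in the window. It is printed, in capitals, for the ER relatives of HSP70 and HSP90 (Hspa5 from chr2:34772010-34772059, plus strand, positions -80 to -31, and Hsp90b1 from chr10:86705515-86705564, minus strand, positions -120 to -71), for comparison with the heat shock elements of the cytosolic genes.
Hspa5: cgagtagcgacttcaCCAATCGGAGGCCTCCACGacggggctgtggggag
Hsp90b1: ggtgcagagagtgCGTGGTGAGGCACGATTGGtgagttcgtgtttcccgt

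Genes listed as excitatory neuron markers summed to 3945 to 4437 TPM in XBP1s-TG and 4260 to 4778 TPM in Control. Such a sum is led by its most abundant genes and is not a measure of the cells that carry the transgene's driver. Of the 8 markers tested 3 were lower, 1 of them by at least 1.5-fold, and 1 was higher at adjusted p, with a median log2 fold change of -0.28. Over all genes tested, 29.4% fell and 24.4% rose. Astrocyte markers summed to 2125 to 2300 TPM and 1919 to 2146 TPM. Microglial markers summed to 442 to 522 TPM against 507 to 537 TPM, and all 7 tested were lower at adjusted p, by less than 1.5-fold, with a median of -0.23. Endothelial markers overlapped, at 139 to 161 TPM against 134 to 171 TPM. No marker was below 0.5 TPM in all libraries. The part of these differences in the falls of HSP90 and CCT genes, and of the J-protein genes Dnaja1 and Dnajb6, was not tested.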

How the data were processed

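Hippocampal mRNA libraries were made from 500 ng of total RNA with a stranded kit and sequenced on an Illumina instrument. The authors checked reads with FastQC, trimmed them with Trimmomatic, and mapped and quantified them per gene on GRCm38 with the CLCbio workbench, and the deposited values are TPM, which sum to 1000000 in each of the 8 libraries. The deposited table also holds group means and an unadjusted p-value per gene, which were not used. Groups of S1 to S8 come from the deposited sample sheet.

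Here 2 was added to each TPM value, log2 was taken, and the 8 libraries were quantile normalized. Of the table's genes, 9270 exceeded 4 in 1 library or more (14 TPM) and were fitted with limma 3.58.1 (eBayes with trend, R 4.3.3). Since a group holds only 4 libraries, limma replaced the unequal-variance test of the study. The limit of 4 was taken from earlier results, since the methods do not state the study's value. Ratios within a library were described without a test, for pairs not fixed in advance. Among them the ratio of Bag3 to Stub1 overlapped between groups (0.0698 to 0.0929 in XBP1s-TG, 0.0647 to 0.0797 in Control). The 6 pairs of relatives were compared with an exact permutation test in Python 3.11.15 (scipy 1.17.1).

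Whole reads were recovered from TPM ratios for 29237 of 29237 genes at a tolerance of 0.001, at least 34821797 to 52059316 reads assigned to genes per library, a count that cannot show a divisor common to all genes. Shared 50-base words were counted on either strand in GENCODE M21 transcripts. Alternatives covered the pseudocount (1 and 0.1), the filter (none, or 5), the normalization, values below 4 raised to 4, the test, and each library left out; both the fit without S1 and S3 and voom on recovered reads were chosen after seeing the data.

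The members, the further chaperone lists and the markers were chosen with earlier results of these data known. The genes named are all 41 members, the ER relatives in the 6 pairs, Xbp1, and genes of the other chaperone lists called at 1.5-fold. Dnajc10 and genes named as overlapping or sharing sequence were added after their values were seen.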

Additional observations from a re-analysis of the deposited data

Results flagged for a closer look

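In 4 of the 82 groups of 4 libraries checked, 1 library lay far from the other 3 by Dixon's criterion, which chance alone meets in about 1 group in 20. Cct5 was low in Control library S5, at 165 TPM where the others were at 169 TPM. Cct7 was low in XBP1s-TG library S2, at 170 TPM against 187 to 190 TPM. Dnaja2 was low in the same library, at 194 TPM against 214 to 215 TPM. Dnajb5, a J-protein of neurons and muscle, was high in Control library S7, at 82.9 TPM against 72.3 to 73.5 TPM.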

How the results depend on the processing

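Of the calls, 2 higher (Hspa1b, Dnajb4) and 7 lower (Cct2, Cct4, Cct5, Hspa4l, Hsp90ab1, Dnaja1, St13) held in all 20 settings, and no log2 fold change of a chaperone gene that passed turned its sign. The number that rose was 8, and was 5 with an unequal-variance test and 3 without S1 and S3. The number that fell was 17, and was 9 with no normalization beyond TPM and 11 without S1 and S3. Leaving out 1 library at a time gave 6 to 8 that rose and 13 to 19 that fell. Calls at 1.5-fold stayed at 2 and 0 in every setting. Hsp90aa1 was at -0.10 by voom on recovered reads and was not called. The filter at 5 removed Hspa1a, Bag3, Hspb1 and Hspb8. Medians without normalization beyond TPM were -0.07 for CCT, 0.05 for J-proteins, -0.02 for co-chaperones and 0.05 for the mitochondrial genes, and median centring gave -0.33 for HSP90. With the 50 bases after the start included, the heat shock pair was found for 51.5% of the 33 genes and 17.0% of all genes. The 6 differences between ER genes and their relatives kept their sign without each library, where 3 against 4 cannot reach the threshold. Causes of these differences were not tested. No paired analysis was possible because the table's columns carry a group but no replicate number. No exact test of members under the limit was needed, since 0 were outside the fit. Depth limits Hspb1, Hspb8 and Bag3 most.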
